A study of Mus musculus with 6 samples.

Results

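A set of 9 genes of the complement system was followed by library: *C3*, *C4b*, *C2*, *Cfb*, *Cfd*, *Serping1*, *Cd55*, *Cd59a* and *Masp1*. They were chosen by symbol as complement factors and inhibitors, and are 9 of the 23420 genes in the count table. The libraries hold polyA RNA from mesenchymal stromal cells (MSCs), the adherent cells flushed from the femurs of young adult female C57BL/6 mice and expanded in culture before retroviral transduction. The 3 control libraries (Ctl MSC) come from cells given the AP2 retroviral vector with its eGFP marker, and the 3 MSC-TPr libraries from cells given the same vector carrying the thymoproteasome subunits β1i, β2i and β5t (*Psmb9*, *Psmb10* and *Psmb11*), joined by viral linker sequences. The comparison asks how expression of these subunits goes with the transcripts of MSCs. Nothing in the sources states that the 3 libraries of a group are separate cultures, so the p-values measure only the spread between these libraries, which may be technical.

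Complement is a cascade of plasma and cell-surface proteins that tags targets with fragments of C3 and can end in a pore in their membrane. The classical pathway starts with C1q, whose proteases C1r and C1s cut C4 and then C2. The lectin pathway uses the MASP proteases on the same substrates, and the alternative pathway joins C3b with factor B, which factor D cuts. All 3 routes are held back by soluble inhibitors such as C1 inhibitor and by membrane proteins such as CD55 and CD59. The liver makes most plasma complement, but stromal cells and macrophages also transcribe components, and interferons and inflammatory cytokines are known to raise several of them.

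Library depth ranged from 16158756 to 22158887 reads on genes, so that 3 reads, the limit that a count of 0 allows, correspond to 0.139 to 0.181 CPM (reads scaled to TMM-adjusted library sizes, the unit of all levels here). The transduced genes did not follow the labels. *Psmb10* was at 27.8, 8.81 and 8.38 CPM in Ctl MSC 1 to 3 and 8.96, 17.3 and 15.2 CPM in MSC-TPr 1 to 3. *Psmb9* was at 3.38, 0.801 and 0.827 CPM against 0.553, 1.24 and 1.21 CPM. *Psmb11* was at 0.0464 to 0.355 CPM throughout, and for none of the 3 did all MSC-TPr libraries exceed all Ctl MSC libraries, so directions below are between libraries as labelled. The libraries stood apart along an axis that *Psmb10* shared: Ctl MSC 1, MSC-TPr 2 and MSC-TPr 3 had cell division scores (mean log2(CPM + 1) of 20 mitotic genes) of 6.44, 6.30 and 6.38, against 3.24, 3.20 and 3.26 in Ctl MSC 2, Ctl MSC 3 and MSC-TPr 1. The first principal component (57.7% of the variance) had the same split. The second (28.9%) parted the groups as labelled. It was at -51.1, -21.1 and -20.2 in Ctl MSC 1 to 3 and at 51.9, 24.4 and 16.0 in MSC-TPr 1 to 3. Whether the libraries numbered 1 carry the right labels cannot be settled from the labels, so every group value rests on them as given. Results are therefore also given from the 4 libraries numbered 2 and 3, in which a high score and the label MSC-TPr coincide and cannot be told apart. Of the defining MSC markers, *Cd44* and *Eng* were abundant in all 6 libraries, *Nt5e* was at 11.4 to 20.2 CPM in Ctl MSC and 2.66 to 5.24 CPM in MSC-TPr, and *Thy1* (CD90) had 1 read in all. *Ptprc* (CD45) had 2 reads in all, and summed macrophage and blood cell markers, mainly *Cd68* and *Cd14*, were at 11.3 to 14.7 CPM in Ctl MSC and 13.2 to 17.6 CPM in MSC-TPr. The sum hides opposite patterns of *Cd68* and *Cd14* within groups, which are given with *C4b* below. In bulk RNA, fewer cells making a transcript and less transcript per cell cannot be told apart.

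Levels differed widely among the 9 genes, as the plot of CPM per kilobase shows. Per kilobase of exon, *Cd59a* (mean 8.45 CPM per kb over 6 libraries) and *Masp1* (6.18) stood above *C4b* (0.462), *Cfb* (0.322) and *C3* (0.237). *C2* (0.0491), *Serping1* (0.0298), *Cfd* (0.0207) and *Cd55* (0.00945) were lowest, and of these *C2* in the Ctl MSC libraries and *Serping1* in Ctl MSC 1 exceeded 3 reads. *Serping1* and *Cfd* had a read in 2 of the 6 libraries and *Cd55* in 4, so the data show little transcription of these 3 genes by the cultured cells, against their choice as stromal products.

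**Figure D1:**
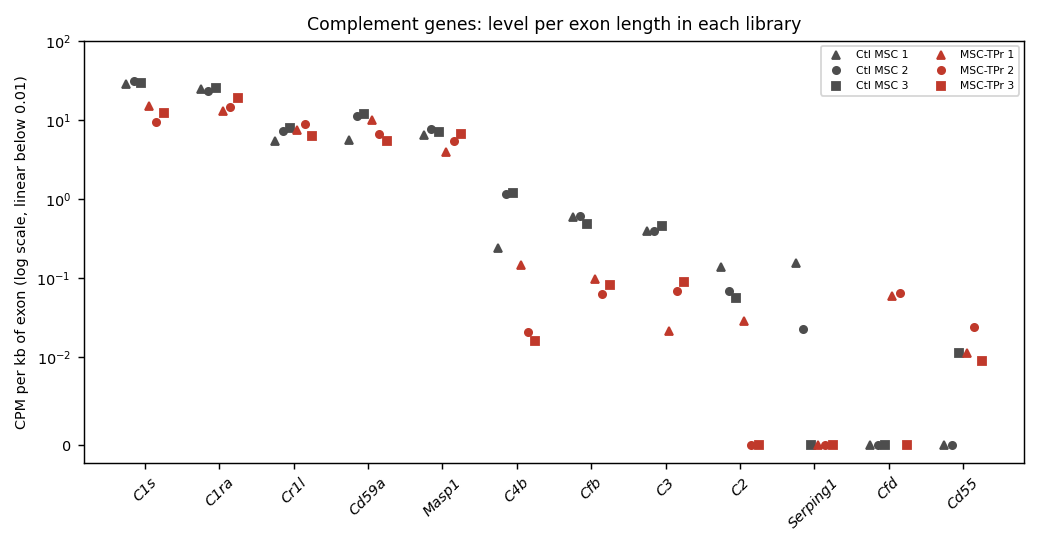
Level per kilobase of exon (CPM per kb, log axis turning linear below 0.01) of the members and 3 other complement genes (*C1s*, *C1ra* and *Cr1l*); points are libraries, grey for Ctl MSC and red for MSC-TPr. *Cd59a* and *Masp1* lie far above *C4b*, *Cfb* and *C3*, whose MSC-TPr points lie below their Ctl MSC points.

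*C3*, the component on which all activation routes converge, was lower in every library labelled MSC-TPr. It lies at chr17:57203970-57228136 on the minus strand (mm10). Its level was 2.05, 2.03 and 2.32 CPM in Ctl MSC 1 to 3, and 0.111, 0.355 and 0.464 CPM in MSC-TPr 1 to 3. The groups did not overlap, and these values rest on 34, 38 and 42 reads against 2, 6 and 10. The log2 fold change was -2.74 (SE 0.502, n = 3 per group), a level 6.69-fold lower, and it missed the threshold with edgeR's quasi-likelihood test (adjusted p = 0.0877). DESeq2 called it (log2 fold change -2.75, adjusted p = 0.000224). On the 4 libraries numbered 2 and 3, where edgeR called 19.4% of all genes lower, it was at -2.37 (SE 0.333, edgeR adjusted p = 0.003).

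The 250 bases before the annotated start of *C3* are shown beside those of *Cd59a*, which did not share its pattern (RefSeq, GRCm38.p6, which holds 4 of the 9 members: *C3*, *Cfd*, *Cd55* and *Cd59a*). Both strands were searched for 4 motifs of factors that act in interferon or acute-phase signalling: the ISRE core, the GAS motif TTCNNNGAA, the C/EBP motif TTGCNNAA and the kappaB motif. Matches are in capitals. *C3* held a C/EBP match at 45 to 38 bases before the start (chr17:57228137-57228386, minus strand), as 9.56% of 32851 promoters did. The *Cd59a* window (chr2:104095551-104095800, plus strand) held an ISRE core at 187 to 178 bases, a motif found in 2.98% of promoters, while the GAS motif (7.02%) and the kappaB motif (1.41%) matched no member's window and *Cfd* and *Cd55* held none of the 4.
C3: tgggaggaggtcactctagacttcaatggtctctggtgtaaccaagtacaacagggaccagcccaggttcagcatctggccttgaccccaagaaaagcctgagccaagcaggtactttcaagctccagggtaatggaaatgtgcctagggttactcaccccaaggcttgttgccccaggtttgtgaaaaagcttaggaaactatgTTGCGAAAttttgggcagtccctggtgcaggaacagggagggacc
Cd59a: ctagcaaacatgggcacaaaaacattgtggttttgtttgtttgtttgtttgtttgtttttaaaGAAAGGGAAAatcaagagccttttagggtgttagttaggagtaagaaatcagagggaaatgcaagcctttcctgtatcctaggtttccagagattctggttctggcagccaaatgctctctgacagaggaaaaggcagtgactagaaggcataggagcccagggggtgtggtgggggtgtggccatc

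*C4b*, the classical and lectin pathway partner of *C2*, varied most within groups among the tested members. It was at 1.39, 6.62 and 6.73 CPM in Ctl MSC 1 to 3 and at 0.830, 0.118 and 0.0927 CPM in MSC-TPr 1 to 3. The groups did not overlap, but Ctl MSC 1 was at 0.208 times the mean of the other Ctl MSC libraries, and MSC-TPr 1 at 7.87 times the mean of the other MSC-TPr libraries. Within each group, then, *C4b* was higher in the libraries with a low cell division score. The macrophage marker *Cd68* was likewise lowest in Ctl MSC 1 and highest in MSC-TPr 1 within their groups. It was at 1.63, 9.66 and 7.39 CPM in Ctl MSC 1 to 3 and 14.2, 1.66 and 0.788 CPM in MSC-TPr 1 to 3. The other tested markers of that list went the opposite way. *Cd14* was at 11.7, 3.36 and 3.53 CPM, then 3.26, 13.2 and 11.0 CPM, and *Csf1r* had 12, 1 and 1 reads, then 0, 13 and 18. *Ptprc*, *Itgam* and *Tyrobp* had at most 2 reads in any library. The part of the division axis or of *Cd68* in the value of *C4b* was not tested. The log2 fold change was -3.82 (SE 0.984, edgeR adjusted p = 0.180), and DESeq2 called it (adjusted p = 0.00208). Without the libraries numbered 1 it was -5.91 (SE 0.335, edgeR adjusted p = 0.000156), or 60.2-fold lower in place of 14.1-fold. The gene lies at chr17:34728380-34743882 beside its near-copy *C4a*, with which it shares 34.6% of its 50-base words. Reads from shared sequence could be missing from the counts or placed on the wrong copy. *C4a* itself stayed at 0.302 to 0.801 CPM in Ctl MSC and 0.417 to 0.553 CPM in MSC-TPr, with overlapping groups.

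*C2*, the protease that C4b binds, had 9, 5 and 4 reads in Ctl MSC and 2, 0 and 0 in MSC-TPr, too few for the test. Every MSC-TPr library lay below every Ctl MSC library, and the pooled ratio of MSC-TPr to Ctl MSC was 0.105 (95% exact interval 0.0118 to 0.438, counting error only).

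*Cfb* (factor B), the alternative pathway counterpart of *C2*, was the 1 member that edgeR called lower, though the call was not stable. It was at 1.69, 1.71 and 1.38 CPM in the Ctl MSC libraries, against 0.277, 0.177 and 0.232 CPM in MSC-TPr, with no overlap and little spread within either group (1.59 ± 0.186 and 0.229 ± 0.0497 CPM, SD, n = 3 each). The log2 fold change was -2.76 (SE 0.375, edgeR adjusted p = 0.0493), 6.77-fold lower. Leaving out any single library gave -2.90 to -2.62, with edgeR adjusted p of 0.0637 to 0.268, so the call was lost each time. It was also lost with no filter on low counts. The 4 libraries numbered 2 and 3 gave -2.85 (SE 0.407, edgeR adjusted p = 0.00314). *Cfb* and *C2* are neighbours on the minus strand of chromosome 17 (34856374-34862518 and 34862604-34898265), and exons of the read-through gene Gm20547, which is not in the count table, cover 79.5% of *Cfb* and 42.8% of *C2*.

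*Cfd* (factor D, also an adipocyte product, chr10:79890853-79892655) had 0, 0 and 0 reads in Ctl MSC and 1, 1 and 0 in MSC-TPr, which allows no comparison. Of the other adipocyte markers, *Adipoq*, *Plin1*, *Cidec*, *Lep* and *Retn* had at most 2 reads in any library, while *Lpl* was at 114 to 278 CPM, *Fabp4* at 13.2 to 126 CPM and *Pparg* at 11.2 to 78.7 CPM.

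*Masp1*, whose transcripts encode the lectin pathway protease MASP-1 and its splice products, had the highest CPM of the members (chr16:23449417-23520815, minus strand). It was at 63.4, 74.5 and 69.6 CPM in the Ctl MSC libraries, against 38.9, 53.3 and 64.8 CPM in MSC-TPr. MSC-TPr 3 lay above Ctl MSC 1, so the groups overlapped. The difference of -0.40 on the log2 scale (SE 0.213) did not pass (edgeR adjusted p = 0.432). Gene-level counts cannot tell its splice forms apart.

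The regulators were not alike. *Serping1*, which encodes the C1 inhibitor (chr2:84765387-84775444, minus strand), had 6, 1 and 0 reads in Ctl MSC 1 to 3 and 0 in each MSC-TPr library. The pooled ratio of MSC-TPr to Ctl MSC had a 95% exact interval of 0 to 0.656 (counting error only), and 6 of the 7 reads were in Ctl MSC 1. *Cd55* (decay-accelerating factor, chr1:130439027-130462744, minus strand) had 0, 0 and 1 reads against 1, 2 and 1, at or under the floor in every library. *Cd59a*, the membrane inhibitor of pore formation (chr2:104095801-104115354, plus strand), was readily detected at 9.96, 20.4 and 21.5 CPM in the Ctl MSC libraries, against 18.0, 12.0 and 9.92 CPM in MSC-TPr. Its groups overlapped, and the log2 fold change was -0.38 (SE 0.371, edgeR adjusted p = 0.685), against -0.94 (SE 0.156, edgeR adjusted p = 0.00523) without the libraries numbered 1. *Cd59a* was low in the 3 libraries with a high cell division score and high in the others, and the part of that axis in its value was not tested.

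**Figure D2:**
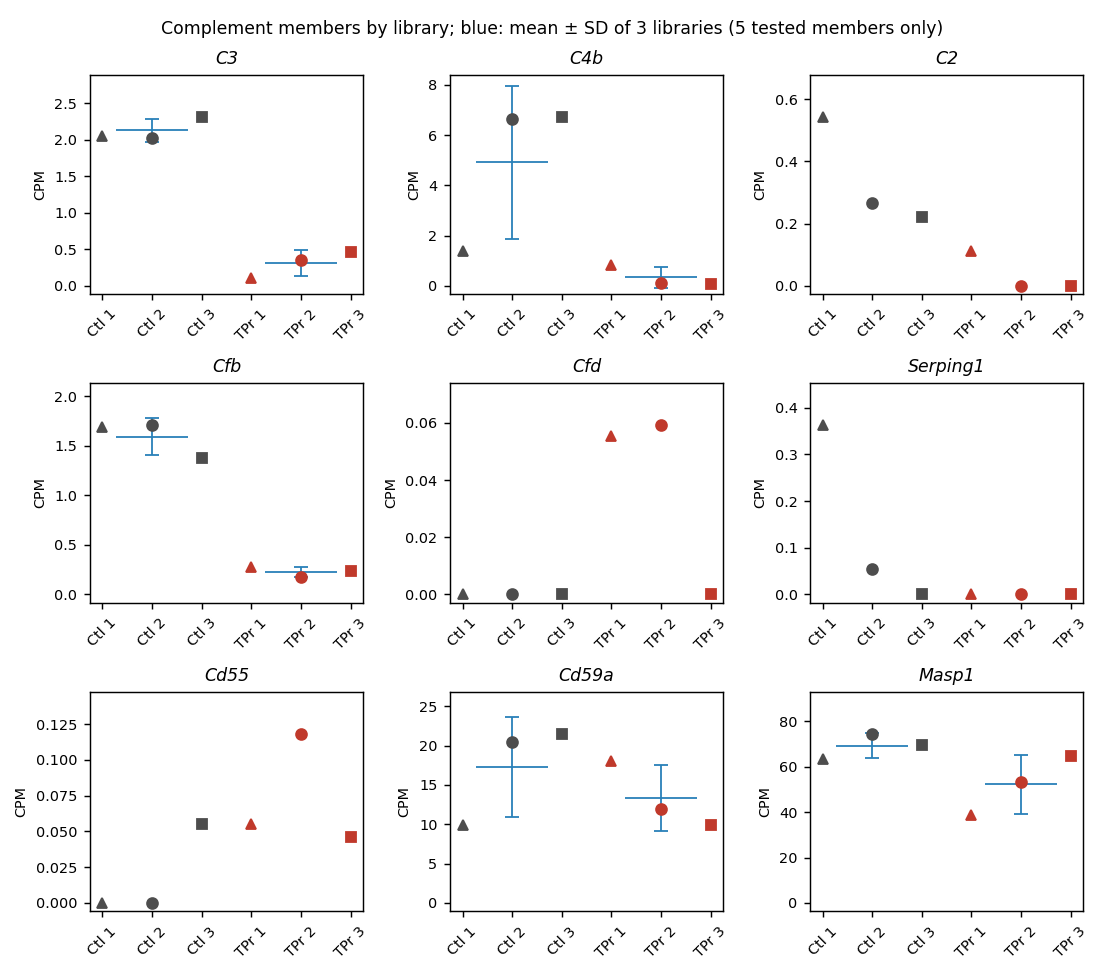
CPM of each of the 9 members in the 6 libraries (linear axes from 0, each panel its own scale; grey Ctl MSC, red MSC-TPr, blue mean ± SD of 3 libraries for the 5 tested members). *C3*, *C4b*, *C2* and *Cfb* lie lower in all MSC-TPr libraries, while *Cd59a* and *Masp1* overlap.

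In counts, 5 of the 9 members passed the filter on low counts. *C3*, *C4b* and *Cfb* passed it only through the Ctl MSC libraries, where they were high, so neither the counts nor the median over the tested members support a direction. Of the 5, 1 (*Cfb*) was called lower by edgeR and 0 higher, where 0.401% of 11974 genes tested were called lower. DESeq2 called 3 lower (*C3*, *C4b* and *Cfb*), where it called 3.42% of all genes lower. Without the libraries numbered 1, edgeR called 4 lower (*C3*, *C4b*, *Cfb* and *Cd59a*), where 19.4% of all genes were called lower. In 3 of the 5 every MSC-TPr library lay below every Ctl MSC library, as in 12.1% of all genes tested. The median log2 fold change was -2.74 over the 5 and 0.01 over all genes tested.

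Among 42 other complement genes in the table, 16 had no read in any library, including all 3 C1q chains (*C1qa*, *C1qb* and *C1qc*) and the terminal component *C9*. Of the 10 that could be tested, edgeR called 0 (2 lower and 1 higher at an unadjusted p under 0.05, where 8.23% of all genes tested were lower at that p) and DESeq2 called 1 lower and 1 higher. Their median log2 fold change was 0.21. *C1s*, annotated as C1s1, the protease that cuts C4 and C2, was at 88.0, 95.8 and 90.7 CPM in the Ctl MSC libraries, against 46.9, 29.2 and 38.4 CPM in MSC-TPr. The groups were well apart, and the log2 difference was -1.26 (SE 0.201, edgeR adjusted p = 0.0731, DESeq2 adjusted p = 5.67e-05). Its antisense neighbour Gm16567 covers 18.4% of its exons, and the strand setting of the counting is not given in the sources used here. *C1ra*, the partner protease that activates C1s, was at 73.2, 69.2 and 74.5 CPM against 38.1, 43.4 and 55.7 CPM (-0.66, SE 0.180, edgeR adjusted p = 0.187), again without overlap. *Clu* (clusterin), which binds the terminal complex, lay at 1.09, 0.907 and 0.992 CPM against 0.0553, 0.709 and 0.695 CPM (-1.01, edgeR adjusted p = 0.553).

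*C3ar1*, the receptor for the C3a fragment, went the other way. It was at 2.29, 1.33 and 1.98 CPM in the Ctl MSC libraries, against 3.10, 7.33 and 4.96 CPM in MSC-TPr, with no overlap, as in 10.6% of all genes tested. The log2 fold change was 1.45 (SE 0.407), which edgeR did not call (adjusted p = 0.195) and DESeq2 did (adjusted p = 0.0316). Without the libraries numbered 1, edgeR called 3 of the 10 higher, among them *C3ar1* and *Colec10*, where 20.6% of all genes were called higher, and *C1s* and *C1ra* lower. *Colec10*, a collectin of the lectin pathway, was at 3.26, 2.40 and 2.15 CPM against 2.05, 9.64 and 8.39 CPM, so that MSC-TPr 1 lay below all Ctl MSC libraries and the others above them. The most abundant of the group were *C1qbp*, at 274 to 329 CPM in Ctl MSC and 305 to 412 CPM in MSC-TPr, and *Cr1l* (Crry), the main rodent membrane regulator of C3 convertases, at 55.7 to 80.7 CPM and 65.4 to 92.3 CPM.

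**Figure D3:**
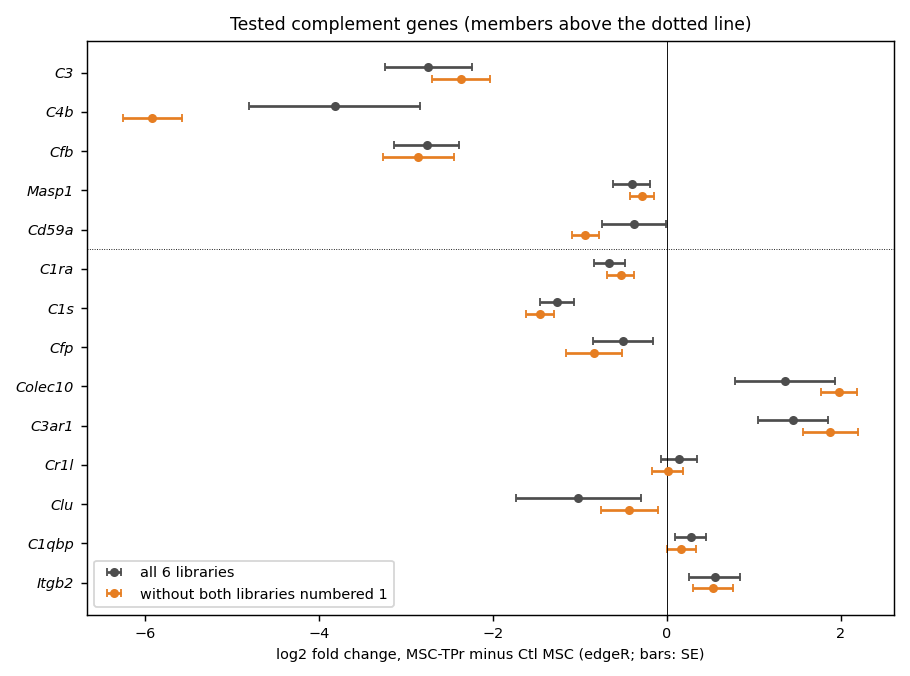
log2 fold change (MSC-TPr minus Ctl MSC) with its standard error for the 5 tested members above the dotted line and 9 of the 10 other tested complement genes below it, from all 6 libraries (grey) and without both libraries numbered 1 (orange). *C3*, *C4b* and *Cfb* lie furthest below 0 in both, and *C4b* moves from -3.82 to -5.91.

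The interferon state of the libraries was set beside these genes because interferons are known to raise complement transcripts. Of 30 interferon-stimulated genes, 29 were tested, and in 28 every MSC-TPr library lay below every Ctl MSC library. *Ifih1* was the exception, and 12.1% of all genes tested lay lower in this way. With edgeR 4 were called lower (*Rsad2*, *Oasl2*, *Usp18* and *Ifi44*), where 0.401% of all genes tested were. DESeq2 called 26 lower, where it called 3.42% of all genes lower. Some of the 29 passed the filter on low counts only through the Ctl MSC libraries, where they were high, so their counts support no direction. The most abundant included *Ifit1*, at 186, 40.2 and 43.7 CPM in the Ctl MSC libraries, against 7.80, 14.8 and 18.5 CPM in MSC-TPr, and *Bst2*, at 201, 137 and 149 CPM against 68.9, 47.1 and 39.5 CPM. *Ifit3* (135, 63.4 and 66.2 CPM against 18.7, 12.8 and 8.99 CPM), *Ddx58* (117, 59.9 and 59.2 against 17.3, 15.6 and 21.8) and *Ifit2* (128, 101 and 94.7 against 56.2, 51.0 and 64.8) had the same order. The interferon score (mean log2(CPM + 1) of the 29 tested genes) was 5.44, 4.23 and 4.24 in Ctl MSC 1 to 3 and 2.71, 2.68 and 2.70 in MSC-TPr 1 to 3. *C3*, *C4b* and *Cfb* thus lay lower in the same libraries as the interferon genes, while *Masp1* and *Cd59a* overlapped between groups. With 6 libraries the log2 fold changes were -2.74 (*C3*), -3.82 (*C4b*), -2.76 (*Cfb*), -0.40 (*Masp1*) and -0.38 (*Cd59a*). The interferon list had a median of -2.71 and a range of -4.32 to -0.73. Without the libraries numbered 1 these genes were, in the same order, at -2.37, -5.91, -2.85, -0.28 and -0.94, and the list's median was -1.88. *C3*, *C4b* and *Cfb* passed the filter only through Ctl MSC, so the size of their fold changes is no support for a likeness to the interferon list.

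Within Ctl MSC the patterns parted. All 29 tested interferon genes were higher in Ctl MSC 1 than in the mean of Ctl MSC 2 and 3, at 1.30 to 4.99 times it (median 2.33), where the median over all genes was 0.995. *C3* was at 0.945, *Cfb* at 1.10, *C1s* at 0.944 and *C1ra* at 1.02 times that mean, and *Masp1* at 0.880. *Cd59a* (0.475) and *C4b* (0.208) were lower in Ctl MSC 1. This rests on 1 library against 2 and has no test. For MSC-TPr 1 over the mean of the other MSC-TPr libraries, the interferon genes had a median of 0.971. Single interferon genes lay well to either side of it, such as *Ifit1* at 0.468 and *Usp18* at 2.14. *Cfb* (1.35) and *Cd59a* (1.65) lay between these values and so did not stand apart from the list. *C3* was at 0.270 on 2 reads, and *C4b* at 7.87.

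The distance between each centred log2(CPM + 1) profile and the interferon score, as a root mean square over 6 libraries, was least for *C3* (0.555), *Cfb* (0.576) and *C1s* (0.578). It was 0.767 for *C1ra*, 0.915 for *Masp1*, 0.992 for *C4b* and 1.12 for *Cd59a*. This distance depends on range as well as order. The score spanned 2.76, and these genes from 0.919 (*Masp1*) to 2.82 (*C4b*), with *C3* at 1.58. Over all genes tested, the profiles nearest to *C3* were those of *Apod* (0.0790), *Ccdc166* (0.0794) and *Cbr3* (0.107). Their ranges were 1.36 to 1.56. None of the 3 is in the interferon list, but a gene of much wider range lies far from *C3* whatever its order, so no conclusion is drawn. Nearest to *C4b* were *Cyp27a1* (0.131), *Dhtkd1* (0.136) and *Dlg2* (0.207). *Dlg2* was at 18.8, 89.8 and 86.7 CPM in the Ctl MSC libraries, against 21.0, 13.6 and 11.2 CPM in MSC-TPr, so it too was high in Ctl MSC 2 and 3 alone. The profile of *Serping1* rests on 7 reads and spans only 0.446 on this scale, so little can be read from its nearest genes, *Reep5* (0.0385), *Emc9* (0.0445) and *Osgep* (0.0532).

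**Figure D4:**
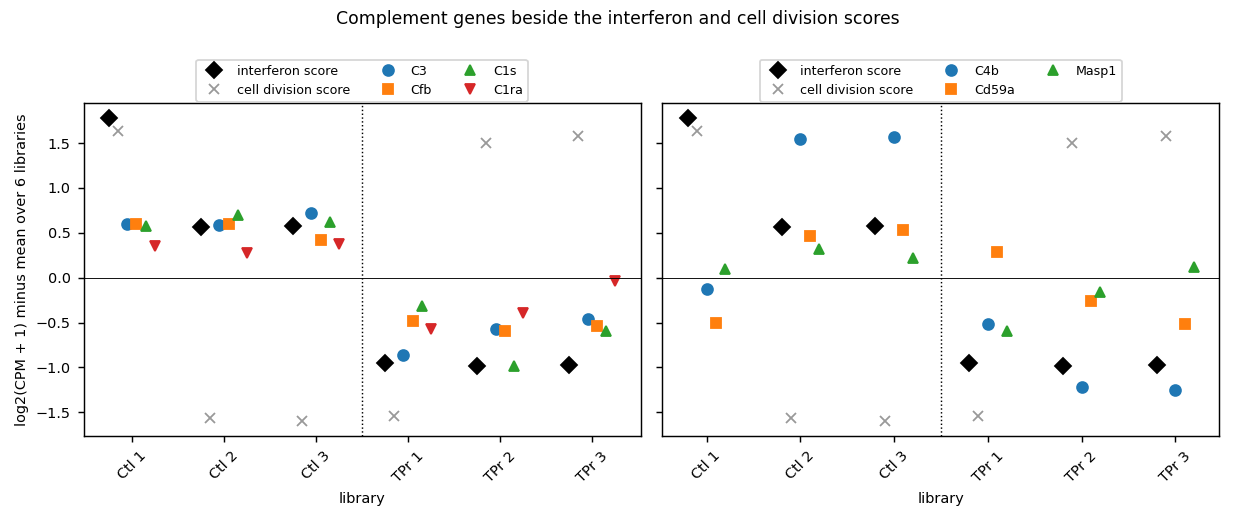
log2(CPM + 1) of complement genes in each library minus the mean of 6 libraries, beside the interferon score (diamonds) and the cell division score (crosses); the dotted line parts Ctl MSC from MSC-TPr. *C3*, *Cfb*, *C1s* and *C1ra* lie level across the Ctl MSC libraries, where the interferon score is highest in Ctl MSC 1, and *C4b* and *Cd59a* lie low in that library.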

How the data were processed

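RNA-seq of polyA RNA was made with a stranded kit. Per the labels and methods, the authors processed reads with CASAVA 1.8.2, Trimmomatic 0.35 and TopHat2 2.1.0 (mm10) and deposited raw Htseq-count counts per gene for 6 libraries; the annotation and strand setting are not given in the sources used here. Rows that name no gene (13.8% to 20.8% of reads per library) were left out. Counts were tested in R 4.3.3 with edgeR 4.0.16 (filterByExpr, TMM, quasi-likelihood test, group only) over 11974 of 23420 genes, with Benjamini-Hochberg adjustment. A gene was called where its adjusted p was below 0.05 and its log2 change 0.5 or more in either direction. DESeq2 1.42.0, the study's tool, was an alternative. The script was tested on simulated data.

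Scores are the mean log2(CPM + 1) of the tested genes of a list. Exon lengths and overlaps came from GENCODE vM21 and promoters from RefSeq. Intervals and floors cover counting error only. Members, lists and alternatives were chosen with earlier results of these data known. Named genes were all members, the transduced genes, among the other complement genes tested those that were called, did not overlap between groups or were among the 3 most abundant, the 5 most abundant interferon genes, the 3 nearest profiles of *C3*, *C4b* and *Serping1*, and copies or overlapping genes of members; *Colec10* was called without the libraries numbered 1, and *Ifih1*, the 4 interferon genes called, *C9*, the C1q chains and the markers were named after their values were seen. *Cd55b* was not analysed here. An item is not reported here.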

Additional observations from a re-analysis of the deposited data

How the results depend on the processing

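The number of members called lower (1 with edgeR on 6 libraries) was 0 with no filter on low counts, 0 with at least 10 counts in every library (which removes *C3*, *C4b* and *Cfb*), 3 with DESeq2, 4 without both libraries numbered 1 and 0 to 0 when each library was left out in turn. Other complement genes called (0) became 2 with DESeq2 and 5 without both libraries numbered 1. Interferon genes called (4) became 9 with no filter, 26 with DESeq2, 27 without both libraries numbered 1 and 0 to 10 when each library was left out. In the latter, 10 came without Ctl MSC 1, 2 without MSC-TPr 1, and 0 without any one of the other libraries. RLE or upper quartile scaling and dropping the fold threshold changed none of these 3 counts. Over all genes, DESeq2 called 3.42% lower. Without both libraries numbered 1, edgeR called 19.4% of all genes lower and 20.6% higher, so 5 of 10 other complement genes is no result about that list. Shares over all genes are not given for the settings with no filter or with a library left out. The counts in those settings are therefore not read as results about a list. Same-numbered libraries did not deviate together from their group means (correlations of -0.760, -0.584 and -0.597). Ctl MSC 2 with MSC-TPr 3 (-0.573) and Ctl MSC 3 with MSC-TPr 2 (-0.568) gave like values. The split of the libraries numbered 1 from the others sets these values, so they cannot tell whether the numbers pair the libraries. With the replicate block the members called became 0 and the interferon genes called 0. Other single-gene values kept their side of the threshold in 49 cases, passed it in 5 and lost it in 8. No value changed sign. The cause of these differences was not tested. *C3* and *Cfb* rest on 18 and 13 reads over the MSC-TPr libraries, which limits their fold changes.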

Other observations

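Other immune gene groups gave mixed counts. Of 17 tested genes known for their response to interferon-gamma, 9 lay lower in every MSC-TPr library (12.1% of all genes tested did) and 1 (*Tap2*, a peptide transporter subunit) higher, with 0 called by edgeR, 9 lower at an unadjusted p under 0.05 (8.23% of all genes tested), 8 called lower by DESeq2 (3.42% of all genes) and a median log2 fold change of -0.96. Of 16 tested inflammatory and acute-phase genes, edgeR called 0, 2 (*Cp* and *Cebpd*, named after their values were seen) were lower at an unadjusted p under 0.05, DESeq2 called 0, and the median was -0.22. A count of 2 of 16 is near the share over all genes and is no result about the list. Summed adipocyte markers were at 235 to 331 CPM in Ctl MSC and 265 to 312 CPM in MSC-TPr, and summed endothelial markers at 0.785 to 3.09 and 1.67 to 3.32 CPM. The adipocyte sum hides unlike patterns. *Lpl* was at 114, 147 and 147 CPM in Ctl MSC 1 to 3 and 278, 170 and 212 CPM in MSC-TPr 1 to 3 (edgeR adjusted p = 0.234). *Fabp4* and *Pparg* were highest in Ctl MSC 1 and lowest in MSC-TPr 1, and *Cebpa* overlapped between groups.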
